A study of Triticum dicoccoides with 12 samples.

Results

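The transcripts described here are 117 probe sets of a wheat oligonucleotide array that were detected in every sample of wild emmer wheat leaf tissue and stood at least 4 times higher under terminal drought than under good watering. A probe set is a group of short probes that together measure 1 transcript or a few similar ones. The probe sets were chosen from the deposited signals by 2 conditions. The signal had to exceed 129 on all 12 arrays, and the lowest of the 6 drought signals had to be at least 4 times the highest of the 6 well-watered signals. The level of 129 is the 95th percentile of 276 signals from 23 control probe sets with no wheat target. Of 61115 probe sets, 14602 exceeded that level on all arrays, called detected here, and the 117 are 0.801% of these. The same conditions turned round, for transcripts at least 4 times lower under drought, were met by 81 probe sets. Because the drought and well-watered signals themselves made the choice, the size of the rise is given below as a description, with no test.

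The 4 groups of 3 arrays each were the drought-resistant genotype R (Y12-3) under terminal drought and well-watered, and the drought-susceptible genotype S (A24-39) under terminal drought and well-watered. All plants were wild emmer (Triticum turgidum subsp. dicoccoides, the tetraploid wild ancestor of pasta wheat), aged 10 weeks and in reproductive growth, potted in quartz sand mixed with peat. The labels call the sampled organ the phyllome, the leaf-like organs of the shoot, and each genotype is 1 line. The labels do not state whether the 3 arrays of a group stand for 3 plants, so the p-values rest on a spread that could be technical. Fewer cells of a type and less RNA per cell cannot be told apart in such bulk samples.

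Terminal drought is a water shortage that sets in while the plant is flowering or filling grain and lasts until it dries up. Leaf cells that lose water accumulate abscisic acid, which acts through its receptors, the PP2C phosphatases they block and the SnRK2 kinases these release, and so switches on bZIP transcription factors and their target genes. Well-known targets include dehydrins and other LEA proteins, which protect proteins and membranes in drying cells, along with enzymes that make compatible solutes such as proline and raffinose. Drying leaves also age, and genes for breaking down proteins and exporting nitrogen are then transcribed.

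Few of the 117 probe sets could be tied to a gene. The platform annotation paired 3 of them (2.56%) with a gene, each by a locus number only, against 562 of the 14602 detected probe sets (3.85%). None matched the gene lists drawn up for dehydrins, heat shock proteins, solute synthesis, abscisic acid signalling, transcription factors, lipid transfer proteins, senescence or the other drought functions, since these 3 carry neither a symbol nor a product. The other 114 are given by probe set ID. In an ID such as Ta.28799.3.S1_x_at, the number after Ta or TaAffx is that of the sequence cluster the probe set was designed from. A suffix of _a_at, _s_at or _x_at means that some or all of its probes also match other transcripts, of the same gene (_a_at) or of other genes (_s_at and _x_at). Such suffixes were carried by 57 of the 117 (23 _a_at, 10 _s_at and 24 _x_at), so 60 (51.3%) were specific by design, against 59.5% of the detected probe sets. Probe sets with the prefix TaAffx made up 12 of the 117 (10.3%) and 23.0% of the detected ones. The gene copies of the wheat subgenomes can share such probes, and a signal is then the sum over them.

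As a limited check of leaf identity, 3 genes of photosynthesis or sugar metabolism that the annotation names were examined. FBP, fructose-1,6-bisphosphatase of sucrose synthesis and the Calvin cycle, GAPN, a glyceraldehyde-3-phosphate dehydrogenase, and petC, the Rieske protein of the cytochrome b6f complex, each exceeded 129 on all 12 arrays with 1 probe set. A second probe set of FBP did so on 2 arrays and one of petC on 0, and the other 5 of 8 leaf genes looked for are not named in the annotation used here. By the detected probe sets, all 3 were lower under drought on every array. FBP was at most 2707 under drought and at least 10501 when well-watered, GAPN at most 2055 and at least 7526, and petC at most 33496 and at least 48897. Well-watered R replicate 3 stood apart, with a median over all probe sets of 151.6, against 58.6 to 103.3 on the other arrays. The ratio of the actin control's 3′ to its 5′ probe set, a sign of RNA quality, was 14.3 on R drought replicate 3, 8.01 on S drought replicate 1, 7.49 on S drought replicate 2 and 7.74 on well-watered R replicate 3, against 0.644 to 2.57 on the other 8 arrays. The same ratio of the GAPDH control was 0.0442 to 0.634 over all arrays. The part of these ratios in the results was not tested. Hybridization controls, transcripts of known amount added before hybridization, averaged 3813 to 5771 on the R drought arrays, 5382 to 14506 on the well-watered R arrays, 6274 to 7205 on the S drought arrays and 5472 to 7489 on the well-watered S arrays. In R they were lower under drought than when well-watered, with overlap, and their part in the comparisons of R with S was not tested beyond the scaling to them given there.

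The starting levels were mostly low to moderate. The median well-watered signal of the 117 probe sets was 847 in R and 665 in S (geometric means of 3 arrays), and over both genotypes it ran from 172 to 7409. The 14602 detected probe sets had medians of 1131 in R and 1149 in S. Well-watered signals averaged under 500 for 43 of the 117, under 1000 for 76 and under 2000 for 99. Signals of different probe sets also depend on how well their probes bind, so the order of signals is not an order of transcript amounts. The lowest of the 12 signals lay below 349.8, the highest signal of the control probe sets, for 47 of the 117, and all 6 well-watered signals did so for 5. The lowest baseline belonged to Ta.28600.1.S1_at, with signals of 7531, 6484 and 4616 in R under drought against 165, 131 and 161 in well-watered R, and 4565, 1428 and 6131 in S under drought against 257, 189.7 and 153 in well-watered S. Its well-watered signals lay between 131.1 and 257, close above the level for detection, and its lowest drought signal was S replicate 2. The next 3 baselines from below were those of Ta.3507.2.S1_a_at, Ta.13293.1.S1_at and Ta.21439.1.S1_x_at.

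At the other end, Ta.24336.1.S1_x_at had the highest baseline. Its signals were 62063, 52487 and 45462 in R under drought against 10595, 6636 and 9527 in well-watered R, and 50429, 44080 and 57163 in S under drought against 5406, 6582 and 6942 in well-watered S. Under drought all 6 of its arrays lay between 44080 and 62063, with rises of 6.05-fold in R and 8.01-fold in S. Ta.24336.1.S1_at, designed from the same cluster sequence, had drought signals of 59896, 45557 and 44003 in R and 50096, 40269 and 53425 in S, and rises of 6.44-fold in R and 8.17-fold in S. Ta.1733.1.S1_at averaged 54760.3 ± 8067 in R under drought against 3714 ± 1188 in well-watered R, and 54026 ± 17801 in S under drought against 5111 ± 402 in well-watered S (SD, n = 3). Ta.10243.1.S1_a_at, the next in order of baseline, averaged 52889 ± 11222 in R under drought against 4739 ± 1248 in well-watered R, and 47273 ± 8917 in S under drought against 3426 ± 411 in well-watered S. In both, the 6 drought signals were far from the 6 well-watered ones, while R and S overlapped under drought.

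**Figure D1:**
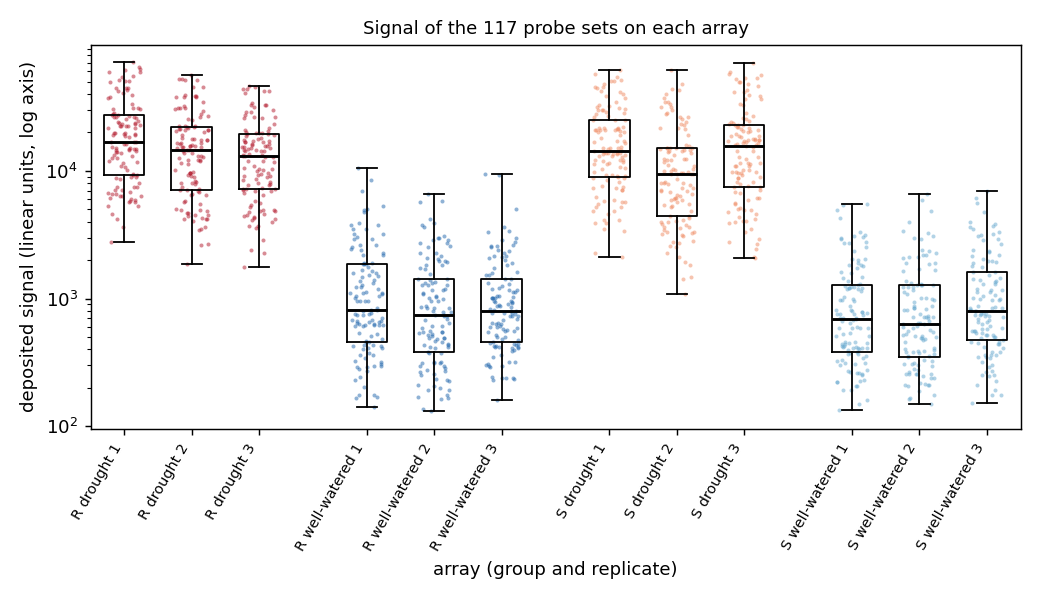
Signal of each of the 117 probe sets (points) on each of the 12 arrays, on a log axis, with boxes from the 25th to the 75th percentile, medians as thick lines and whiskers to the extremes. The array medians lie between 9381 and 16875 on the 6 drought arrays, lowest on S drought replicate 2, and between 629 and 816 on the 6 well-watered arrays.

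The levels reached under drought were among the highest signals of the arrays. The median signal was 14797 in R under drought and 12077 in S under drought. Within each genotype's drought arrays, the median probe set of the 117 lay at the percentile 95.9 of the 14602 detected probe sets in R and 94.7 in S, against 39.9 in well-watered R and 32.2 in well-watered S. Over both genotypes, 102 of the 117 averaged above 5000 under drought, 76 above 10000, 32 above 20000 and 8 above 40000. On each drought array 68 to 94 of the 117 were in the top 10% of the detected probe sets, with the lowest number on S replicate 2. On the well-watered arrays 0 to 2 were. The highest level was that of Ta.4834.1.S1_at, with signals of 71030, 52420 and 42120 in R under drought against 816, 167 and 936 in well-watered R, and 61784, 47802 and 56730 in S under drought against 207, 219 and 687 in well-watered S. The drought signals of R and S overlapped, and the well-watered signals spread widely within each genotype. Next in drought level were Ta.1733.1.S1_at and Ta.24336.1.S1_x_at, described above, and Ta.7091.1.S1_at. The last averaged 46621 ± 6598 in R under drought against 3099.7 ± 1457 in well-watered R, and 57419.7 ± 5152 in S under drought against 2982 ± 1559 in well-watered S (SD, n = 3).

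**Figure D2:**
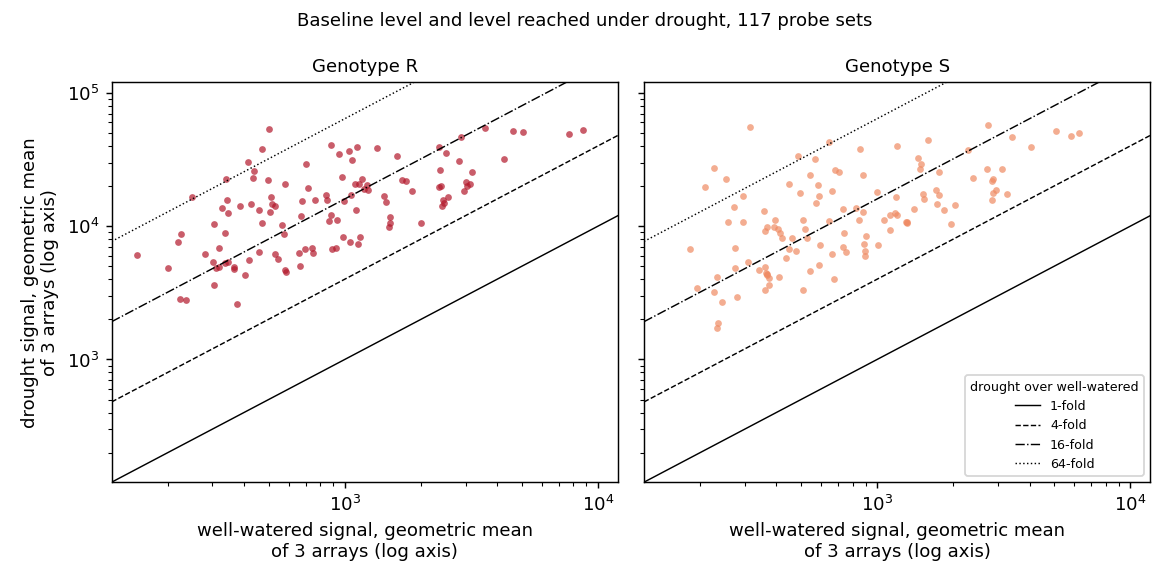
Drought signal against well-watered signal of the 117 probe sets in R (left) and S (right), each point a geometric mean of 3 arrays, on log axes with lines for a 1-, 4-, 16- and 64-fold rise. Baselines spread over 151.7 to 8750 in R and 182 to 6275 in S, and drought levels over 2586 to 54354 in R and 1732 to 57260 in S.

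The rise, taken as the ratio of the geometric means of a genotype's 3 drought and 3 well-watered arrays, had a median of 15.3-fold in R and 13.7-fold in S. It ran from 5.34-fold to 107-fold in R and from 5.31-fold to 175-fold in S. In both genotypes at once, 87 of the 117 had rises of at least 8-fold, 41 of at least 16-fold, 16 of at least 32-fold and 2 of at least 64-fold. The 2 were Ta.4834.1.S1_at, at 107-fold in R and 175-fold in S, and Ta.5339.1.S1_at, at 73.2-fold in R and 94.7-fold in S. Signals of Ta.5339.1.S1_at were 38191, 27854 and 26040 in R under drought against 619.9, 271 and 421 in well-watered R, and 30302, 12211 and 20744 in S under drought against 191, 176 and 269 in well-watered S. The well-watered signals of S were the lower ones, and the lowest drought signal was again S replicate 2. Next by the mean of both genotypes came LOC606323 (Ta.2690.1.S1_at), described below, and Ta.4800.1.S1_at, with 66-fold in R and 46.5-fold in S.

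The smallest rises belonged to probe sets with little spread between arrays, as a ratio of 4 between the extremes requires. Ta.2678.1.S1_x_at had signals of 10724, 12154 and 9233 in R under drought against 1854, 2138 and 1995 in well-watered R, and 12157, 9543 and 9789.6 in S under drought against 2006, 1865 and 2025 in well-watered S. Its rises were 5.34-fold in R and 5.31-fold in S, and the 2 genotypes overlapped in both regimes. Ta.25514.1.S1_at had rises of 5.99-fold in R and 5.37-fold in S, Ta.6262.2.S1_a_at of 5.85-fold in R and 5.53-fold in S and TaAffx.87132.1.S1_s_at of 6.2-fold in R and 6.21-fold in S. The well-watered signals of these 4 averaged 1978, 2835, 2628 and 2913 over both genotypes.

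The ratio that made the choice, of the lowest drought to the highest well-watered signal, had a median of 5.51 and reached 45.0 for Ta.4834.1.S1_at. It was under 5 for 47 of the 117, at least 8 for 28 and at least 16 for 11. Just inside the limit of 4 stood Ta.27265.1.S1_x_at, Ta.1764.1.S1_at and Ta.5410.1.S1_at, all at 4.05. Just outside it stood Ta.13760.1.S1_at at 3.98, Ta.14887.1.S1_at at 3.98 and Ta.7134.2.S1_a_at at 3.97, whose rises were 7.79-fold in R and 7.54-fold in S, 8.14-fold in R and 7.23-fold in S and 10.4-fold in R and 7.38-fold in S. A geometric mean rise of at least 4-fold over both genotypes was found in 755 detected probe sets, and 638 of these fell short of the ratio. The 3 sucrose synthase control probe sets of the array, which the rule leaves out by name, had ratios of 2.49, 2.44 and 1.89 and would not have met it.

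One drought array, S replicate 2, largely set that ratio. It held the lowest of the 6 drought signals for 82 of the 117 probe sets, against 0 to 15 for each of the other 5 drought arrays, and its median signal over the 117 was 9381 against 13088 to 16875. Among the 755 detected probe sets with a rise of at least 4-fold it was the lowest for 538. Without it, 249 probe sets met the rule, the 117 among them. Leaving out any other array gave 117 to 145. The within-group spread of log2 signal had a median SD over the 117 of 0.269 in R under drought, 0.328 in well-watered R, 0.459 in S under drought and 0.267 in well-watered S. Over the detected probe sets the corresponding medians were 0.278, 0.289, 0.306 and 0.235.

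LOC542799, measured by Ta.13183.1.S1_x_at, was one of the 3 probe sets paired with a gene. Its signals were 26219, 22518 and 20956 in R under drought against 320.3, 509 and 502 in well-watered R, and 38248, 23044 and 36567 in S under drought against 592, 399.7 and 777 in well-watered S, rises of 53.3-fold in R and 56-fold in S. Drought signals of R and S overlapped, and R minus S was −0.46 ± 0.28 (adjusted p = 0.38, limma) under drought. The annotation pairs LOC542799 with a second probe set, Ta.13183.1.S1_s_at, which is not among the 117 because well-watered R replicate 3 lay below 129. Its signals were 19856, 15821 and 15061 in R under drought against 148, 241 and 38.8 in well-watered R, and 41553, 33356 and 48151 in S under drought against 1151, 616 and 1701 in well-watered S, rises of 151-fold in R and 38.1-fold in S. R and S did not overlap in either regime. R minus S was −3.03 ± 0.46 when well-watered (adjusted p = 0.00096, limma) and −1.27 ± 0.46 under drought (adjusted p = 0.12, limma), and the difference in rise was 1.76 ± 0.65 (adjusted p = 0.27, limma). Ta.13183.1.S1_x_at gave −0.38 ± 0.28 when well-watered (adjusted p = 0.48, limma), so the 2 probe sets of this locus differed in size and in the call. LOC606323 (Ta.2690.1.S1_at) had signals of 54914, 24831 and 12988 in R under drought against 629, 234 and 576 in well-watered R, and 37420, 31750 and 9590.3 in S under drought against 262, 163 and 383 in well-watered S. Its drought signals spread widely within R and within S, with rises of 59.4-fold in R and 88.8-fold in S. LOC543060 (Ta.24748.1.S1_at) had signals of 11511, 4942 and 4368 in R under drought against 427, 872 and 769 in well-watered R, and 9346, 3956 and 5909 in S under drought against 756, 970.0 and 975 in well-watered S. It is among the smaller rises, at 9.54-fold in R and 6.73-fold in S, and its ratio of 4.06 lay just above the limit. None of these 3 probe sets passed the test of R against S in either regime or of the size of the rise, with adjusted p of 0.38 to 0.95 (limma). The annotation gives no product for them.

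In the deposited signals, the rises in R and S lay within 2-fold of each other for most of the 117. The choice required a rise in both genotypes, and the similarity depended on the scaling, as given below. As deposited, the rise was larger in R for 63 of the 117 and larger in S for 54, and the median ratio of the rise in R to that in S was 1.03. Across the 117, the log2 rises correlated with Pearson's r = 0.783 and Spearman's rho = 0.772, and across the 14602 detected probe sets with r = 0.861. R and S share no array, but they share the probes, and probe sets are not independent replicates. The rises differed by over 2-fold in 11 of the 117 (9.4%), 6 larger in R and 5 larger in S, against 11.3% of the detected probe sets. Whether the drought effects differed was tested with limma on log2(signal + 16) across 38398 probe sets, with p-values adjusted over all of them. None of the 117 passed an adjusted p of 0.05, against 57 of the 38398 tested (0.148%) and 24 of the 14602 detected (0.164%). The lowest adjusted p was 0.11. At an unadjusted p of 0.05, 13 of the 117 (11.1%) passed, against 12.9% of those tested and 13.5% of those detected. The median SE of the difference between the rises was 0.41 on the log2 scale, and a high rise in both genotypes was already required by the choice.

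**Figure D3:**
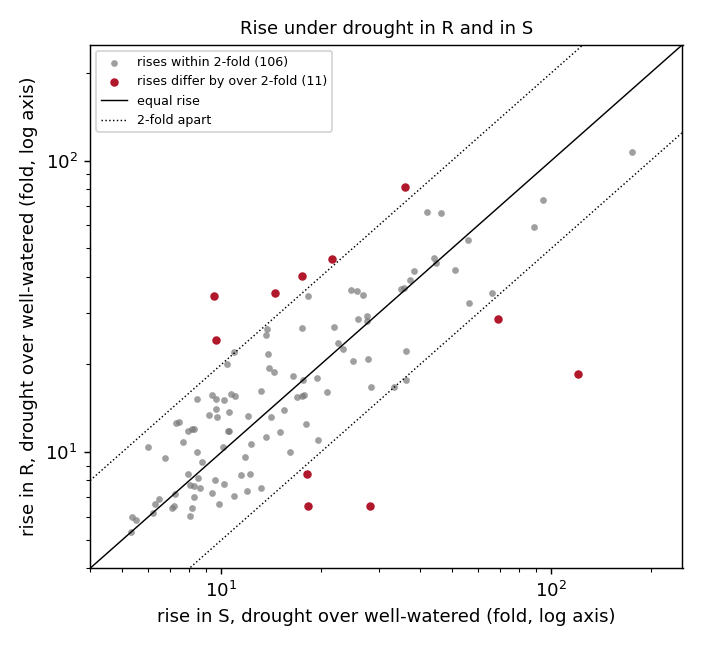
Rise under drought in R against the rise in S for the 117 probe sets, each as a ratio of geometric means of 3 arrays, on log axes. Red marks the 11 probe sets whose rises differed by over 2-fold on the log2(signal + 16) scale, and the points lie on both sides of the line of equal rise.

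Which genotype had the larger rise depended on the scaling of the arrays and on S drought replicate 2. As deposited, the split was 63 to 54. With arrays scaled to their medians, the rise was larger in R for 95 and in S for 22, with median rises of 21.7-fold in R and 14.2-fold in S. Quantile normalization gave 61 and 56. Scaling to the hybridization controls gave 111 and 6, with medians of 29.4-fold in R and 12.9-fold in S. Without S drought replicate 2 the rise was larger in R for 42 and in S for 75, and the median rise in S was 15.5-fold. None of the 117 passed the test of the difference under the 3 other scalings.

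The 3 probe sets with the lowest adjusted p for a difference in rise were Ta.28010.1.S1_s_at, Ta.29951.1.S1_at and Ta.1764.1.S1_at. Ta.28010.1.S1_s_at had signals of 7518, 8022 and 6697 in R under drought against 1462, 963 and 1014 in well-watered R, and 12142, 6083 and 18624 in S under drought against 276, 409 and 541 in well-watered S. The rises were 6.56-fold in R and 28.2-fold in S, a log2 difference of −2.07 ± 0.50 (adjusted p = 0.11, limma), which passed the threshold without S drought replicate 2, at −2.50 (adjusted p = 0.039, limma). Ta.28010.1.S1_at, designed from the same cluster sequence, was not above 129 on every array and so was not chosen. It did not share this gap, with rises of 4.03-fold in R and 3.72-fold in S. The R and S drought signals of Ta.28010.1.S1_s_at overlapped, while its well-watered signals did not. Ta.29951.1.S1_at ran the other way, with 5283, 4512 and 4846 in R under drought against 177, 191 and 237 in well-watered R, and 4849, 2762 and 3532 in S under drought against 422, 331 and 379 in well-watered S. Its rises were 24.3-fold in R and 9.63-fold in S, and the log2 difference was 1.28 ± 0.34 (adjusted p = 0.14, limma). Here too the genotypes stood apart when well-watered and overlapped under drought. Ta.1764.1.S1_at had 12971, 18113 and 19764 in R under drought against 3201, 2290.1 and 2263 in well-watered R, and 31705, 33251 and 18663 in S under drought against 1221, 1227 and 2152 in well-watered S, a difference of −1.47 ± 0.41 (adjusted p = 0.15, limma). It too was apart when well-watered, higher in R, and overlapped under drought.

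The widest gap in rise, 18.5-fold in R and 120.2-fold in S, belonged to Ta.26922.1.S1_at, with signals of 14869, 15365 and 17233 in R under drought against 1904, 205 and 1593 in well-watered R, and 25006, 31407 and 25626 in S under drought against 135, 165 and 519.6 in well-watered S. Well-watered R replicate 2 lay far below the other R arrays and within the range of S. The log2 difference was −2.63 ± 0.90 (adjusted p = 0.24, limma), and without that array it was −3.63 (adjusted p = 0.025, limma). This probe set was named after its values were seen.

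Well-watered plants differed between R and S for 11 of the 117 probe sets (9.4%), against 7.28% of those tested and 7.08% of those detected on all arrays. Of the 11, 8 were higher in R and 3 lower. In these directions, 4.36% and 2.92% of all tested probe sets were called, and 3.4% and 3.68% of the detected ones. The lowest adjusted p belonged to Ta.15042.1.A1_at, with signals of 1869, 1087 and 1184 in well-watered R and 330.2, 485 and 726 in well-watered S. The groups did not overlap, and R minus S was 1.43 ± 0.28 (adjusted p = 0.0069, limma). Under drought its signals were 44283, 38646 and 32821 in R under drought and 34580, 27669 and 39464 in S under drought, which overlapped, and the rises were 28.6-fold in R and 68.7-fold in S. It kept its call under 22 of 23 alternatives and lost it with hybridization control scaling (1.01, adjusted p = 0.29). Ta.2022.2.S1_at had 6933, 3789 and 4988 in well-watered R and 2372, 1899 and 2667 in well-watered S. The difference was 1.14 ± 0.24 (adjusted p = 0.01, limma), and it was lost with median scaling (0.85, adjusted p = 0.075), hybridization control scaling (0.72, adjusted p = 0.44) and when well-watered R replicate 1 was left out (0.92, adjusted p = 0.053). Under drought Ta.2022.2.S1_at still had non-overlapping signals, 59432, 51142 and 43767 in R under drought and 41119, 29918 and 41195 in S under drought, with a difference of 0.46 ± 0.24 (adjusted p = 0.3, limma).

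Among the others that were higher in well-watered R, Ta.28010.1.S1_s_at differed by 1.48 ± 0.35 (adjusted p = 0.02, limma) and Ta.28799.1.S1_a_at by 0.96 ± 0.26 (adjusted p = 0.035, limma). Ta.28010.1.S1_at, of the same cluster sequence as Ta.28010.1.S1_s_at, was outside the chosen set. Its well-watered signals were 128, 150 and 289 in R and 276, 160 and 209 in S, which overlapped. Of 23 alternatives, 6 lost the call of Ta.28010.1.S1_s_at (adjusted p up to 0.29) and 10 that of Ta.28799.1.S1_a_at (up to 0.59). The remaining 4 were Ta.12337.1.S1_at, described below, and Ta.11152.3.S1_at, Ta.18581.1.S1_at and TaAffx.56718.1.S1_at, which the naming rule does not reach, with differences of 0.90, 0.82 and 0.89 (adjusted p = 0.032, 0.029 and 0.0498, limma). Of the 3 that were lower in R, TaAffx.29435.1.S1_at had 142, 255 and 292 in well-watered R and 769, 639 and 814 in well-watered S, a difference of −1.67 ± 0.44 (adjusted p = 0.033, limma). The R signals lay near the level for detection. Ta.11623.2.A1_at had 273, 432 and 237 in well-watered R and 663, 714 and 844 in well-watered S, a difference of −1.24 ± 0.31 (adjusted p = 0.025, limma). For Ta.29951.1.S1_at, given above, it was −0.86 ± 0.24 (adjusted p = 0.047, limma). Of 23 alternatives, these calls were lost under 6 for TaAffx.29435.1.S1_at (adjusted p up to 0.14), 7 for Ta.11623.2.A1_at (up to 0.10) and 16 for Ta.29951.1.S1_at (up to 0.18). Under drought none of these 3 passed the test of R against S, and their signals in R and S overlapped. TaAffx.29435.1.S1_at had rises of 34.4-fold in R and 9.51-fold in S, and Ta.11623.2.A1_at of 34.3-fold in R and 18.3-fold in S.

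The split of the well-watered calls moved with the scaling. Median scaling gave 1 higher and 4 lower in R, quantile normalization 7 and 4, and scaling to the hybridization controls 0 and 1. Over the 117, the median of R minus S when well-watered was 0.18 on the log2 scale as deposited, 0.09 when quantile normalized, −0.10 when scaled to array medians and −0.23 when scaled to the hybridization controls. The count of 11 became 1 without well-watered R replicate 1, 3 without well-watered R replicate 3, 3 without well-watered S replicate 1, 4 without well-watered S replicate 2, 7 without well-watered S replicate 3 and 6 without R drought replicate 2. The last array enters only the estimate of the spread.

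**Figure D4:**
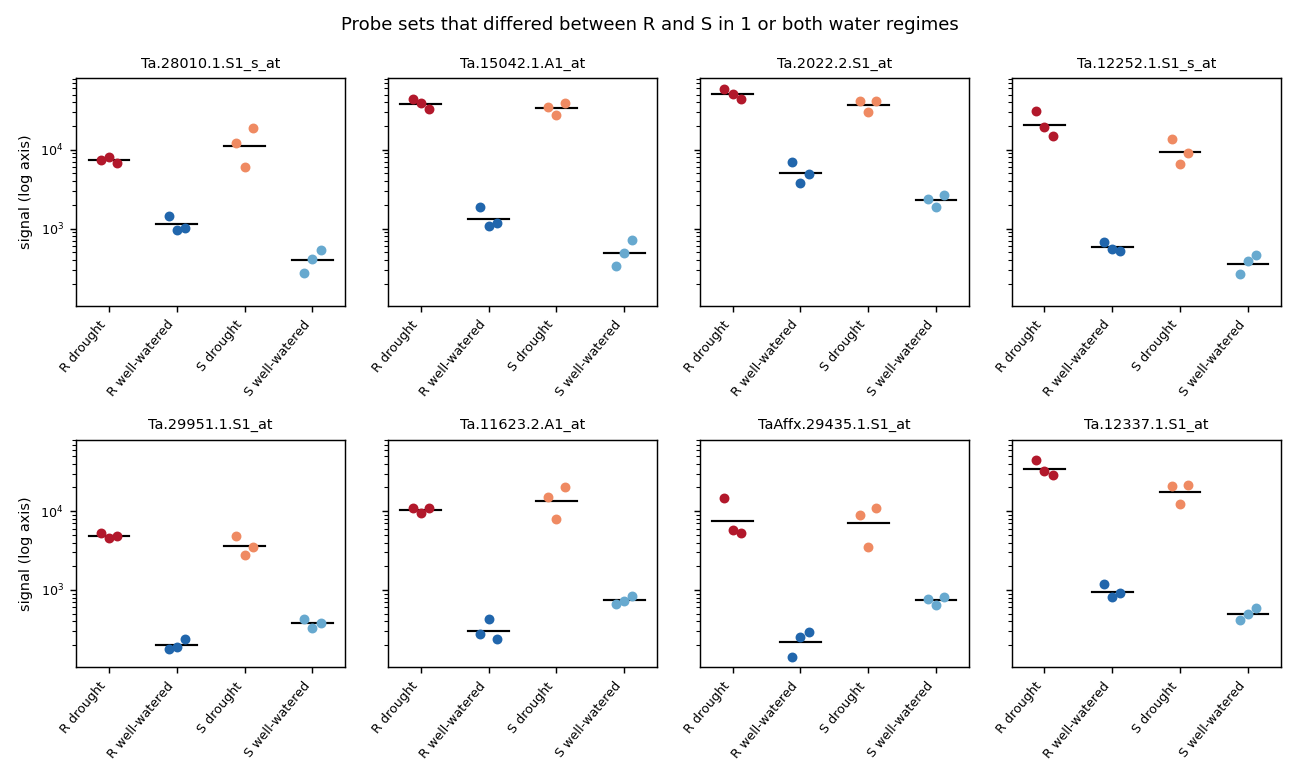
Signal (log axis) on each of the 3 arrays of each group (points) with the geometric mean (bar) for 8 probe sets. Ta.15042.1.A1_at, Ta.2022.2.S1_at and Ta.28010.1.S1_s_at were higher and Ta.29951.1.S1_at, Ta.11623.2.A1_at and TaAffx.29435.1.S1_at lower in well-watered R, Ta.12252.1.S1_s_at was higher in R under drought, and Ta.12337.1.S1_at was higher in R in both regimes.

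Under drought, R and S differed for 3 of the 117 probe sets (2.56%), all higher in R. The shares were 7.48% of those tested, 3.58% being higher in R, and 8.66% of those detected, 4.16% being higher in R. Ta.12252.1.S1_s_at had drought signals of 30985, 19244 and 15110 in R and 13614, 6509 and 8995 in S, a difference of 1.16 ± 0.31 (adjusted p = 0.038, limma). For Ta.12337.1.S1_at they were 44667, 32373 and 28972 in R and 20863, 12266 and 21659 in S, a difference of 0.97 ± 0.26 (adjusted p = 0.036, limma). For Ta.1422.3.S1_x_at they were 4613, 3511 and 2875 in R and 2109, 1473 and 2078 in S, a difference of 0.94 ± 0.26 (adjusted p = 0.038, limma). In each of the 3 the lowest R array exceeded the highest S array. Ta.12337.1.S1_at was the 1 probe set called in both regimes, with well-watered signals of 1179.5, 803 and 914 in R and 417, 501 and 584 in S, a difference of 0.92 ± 0.26 (adjusted p = 0.047, limma). Its rises were nearly equal, 36.5-fold in R and 35.7-fold in S. That well-watered call held under 7 of 23 alternatives. The 3 drought calls became 0 without R drought replicate 1, without R drought replicate 2 or without S drought replicate 2, and 1 without S drought replicate 3 or without well-watered S replicate 2. Over all alternatives the adjusted p was 0.019 to 0.16 for Ta.12252.1.S1_s_at, 0.007 to 0.15 for Ta.12337.1.S1_at and 0.03 to 0.17 for Ta.1422.3.S1_x_at.

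Drought levels of the 117 lay closer together in the genotypes than the baselines did at the extremes. R minus S under drought ran from −0.78 to 1.16 on the log2 scale, beyond 2-fold for 1 of the 117 (0.855%), against 10.9% of the detected probe sets. When well-watered it ran from −1.67 to 1.85, beyond 2-fold for 8 of the 117 (6.84%), against 8.34% of the detected. The level was higher in R for 78 of the 117 under drought and for 74 when well-watered, and these counts were 94 and 46 after median scaling and 115 and 33 after scaling to the hybridization controls. Without S drought replicate 2 the level was higher in R under drought for 55. The choice itself keeps apart the lowest drought and highest well-watered signals of both genotypes, so it also limits how far R and S can differ within a regime.

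A low baseline in 1 genotype went with a larger rise in the other. Across the 117, the well-watered level in S and the log2 rise in R, which share no array, correlated with Pearson's r = −0.506 and Spearman's rho = −0.511. For the well-watered level in R and the rise in S, r was −0.288 and rho −0.298. The well-watered levels of R and S themselves correlated with r = 0.894, and each rise is measured from its own baseline. These correlations are therefore not independent of that baseline. Drought levels kept part of the order of the baselines, with rho = 0.52 between well-watered S and R under drought and 0.647 between well-watered R and S under drought, against 0.634 and 0.742 across the detected probe sets. Points share probes and the floor and ratio of the choice, and the values are a description only.

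The 117 probe sets came from 100 sequence clusters, of which 86 held 1 of them, 11 held 2 and 3 held 3. Probe sets of 1 cluster may measure the same transcript and are not independent. Within the 14 clusters that held 2 or 3, the rises over both genotypes differed by at most 1.73-fold (median 1.12-fold). The difference between the rise in R and in S ran the same way in all probe sets of 10 of the 14, larger in R in 7 and larger in S in 3. In cluster Ta.28799 the rise was larger in S in all 3 probe sets, at 16.7-fold in R and 33.5-fold in S for Ta.28799.1.S1_a_at, 11-fold in R and 19.7-fold in S for Ta.28799.3.S1_a_at and 17.7-fold in R and 36.4-fold in S for Ta.28799.3.S1_x_at. Signals of Ta.28799.1.S1_a_at were 50585, 37666 and 31627 in R under drought against 2437, 2531 and 2101 in well-watered R, and 45660, 26241 and 53536 in S under drought against 1152, 1271 and 1171 in well-watered S. The genotypes were apart when well-watered and overlapped under drought, as in the other 2 probe sets of the cluster. In cluster Ta.26921 the rise was also larger in S in all 3, at 8.42-fold in R and 12.2-fold in S for Ta.26921.1.S1_a_at, 7.54-fold in R and 13.2-fold in S for Ta.26921.1.S1_x_at and 7.37-fold in R and 11.9-fold in S for Ta.26921.3.S1_x_at. In cluster Ta.29508 the rises were nearly equal, at 23.7-fold in R and 22.6-fold in S for Ta.29508.1.S1_at, 28.1-fold in R and 27.7-fold in S for Ta.29508.2.S1_a_at and 36.4-fold in R and 35-fold in S for Ta.29508.3.S1_a_at. None of these 9 passed the test of the difference.

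Other detected probe sets of the same 100 clusters mostly moved in the same direction. The clusters held 87 other probe sets, and 40 of these were above 129 on all arrays. The rest, not above 129 on every array, ran in both directions and are not counted here. In 32 of the 40 (80%) all 6 drought signals exceeded all 6 well-watered ones, as in 18% of the detected probe sets (2625), and the median rise of the 40 was 5.94-fold. These probe sets fell short of the ratio of 4 but share a cluster number with those that met it, so they are no independent count of transcripts.

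The 5 detected probe sets of these clusters whose mean signal over both genotypes fell under drought all belonged to cluster Ta.27751. Its 1 probe set among the 117, Ta.27751.5.S1_at, had signals of 49228, 37878 and 32674 in R under drought against 2410, 611 and 948 in well-watered R, and 42386, 42673 and 42638 in S under drought against 598, 396 and 1130.1 in well-watered S. The rises were 35.2-fold in R and 66-fold in S, and the 3 S drought arrays were nearly equal. Of its 7 other probe sets that were detected on all arrays, 5 had all 6 drought signals below all 6 well-watered ones. Ta.27751.6.S1_at had 324, 1498 and 4804 in R under drought against 21485, 38531 and 37127 in well-watered R, and 2547, 7700.5 and 9018 in S under drought against 55348, 57950 and 49592 in well-watered S, and the ratio of drought to well-watered was 0.0423 in R and 0.104 in S. The other 4, Ta.27751.2.S1_x_at, Ta.27751.3.S1_at, Ta.27751.3.S1_x_at and Ta.27751.7.A1_x_at, had ratios of 0.0964 to 0.288 in R and 0.259 to 0.508 in S. Ta.27751.1.S1_at and Ta.27751.8.S1_at overlapped between regimes. No member of the cluster is paired with a gene, and it was singled out after its values were seen.

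**Figure D5:**
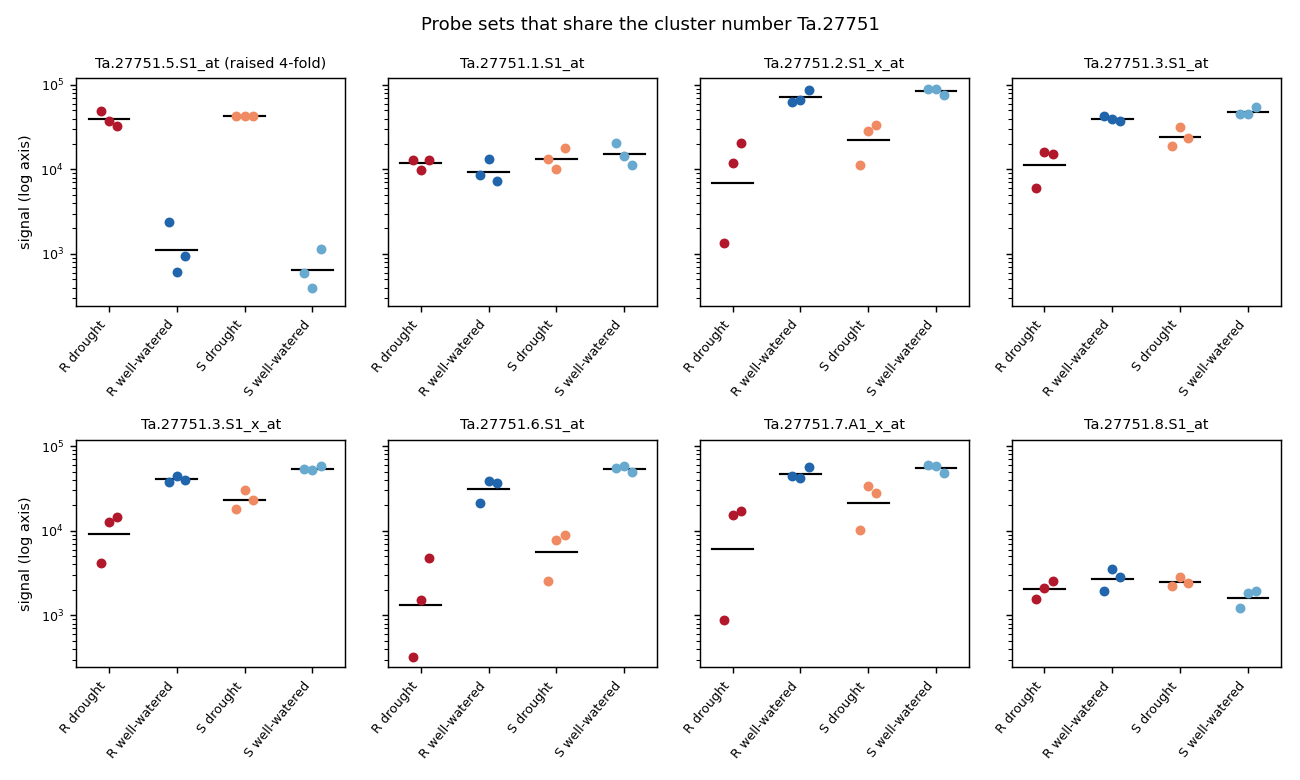
Signal (log axis) on each array (points) with group geometric means (bars) for the 8 probe sets of cluster Ta.27751 that were detected on all 12 arrays. Ta.27751.5.S1_at is at least 32674 on the drought arrays and at most 2410 on the well-watered ones, and 5 of the others lie lower under drought than when well-watered.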

How the data were processed

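Total RNA was biotin-labelled by the one-cycle Affymetrix protocol, per the labels. The authors deposited 1 signal intensity per probe set and array, on a linear scale. The submitters' processing notes name MAS5, with its version and target scale not given in the sources used here. In each array, the mean signal without the highest and lowest 2% of signals was 500.3, which shows 1 common scaling. The number of arrays limits the precision. Groups and replicate numbers came from the sample titles, since the last line of every description names the same group. Log2(signal + 16) was fitted with limma 3.58.1 (eBayes with a trend) in R 4.3.3, with 4 group means over all 12 arrays and no further scaling. The 111 AFFX and 64 RPTR probe sets were left out, and 38398 of 61115 (62.8%) exceeded the median signal of the array in 3 or more arrays and were tested. Calls use a Benjamini-Hochberg adjusted p under 0.05. Differences are given ± SE. Rises are ratios of geometric mean signals, with no pseudocount. The fit was tested on simulated data. The probe sets, lists and tests were chosen with earlier results of these data known. Named were all probe sets paired with a gene, those with the highest and lowest baseline, the highest drought level, the largest and smallest rise, those next to the limit of 4, the called ones (up to 5 per direction, or the 3 with the lowest p) and the 3 fullest clusters. No accession or gene ID linked them to the assembly WEW_v2.1, so no coordinates or sequences are given. Figures were drawn with matplotlib 3.10.9. Alternatives were other pseudocounts, scalings, filters, variance models, samples in the fit, a replicate block and each array left out.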

Additional observations from a re-analysis of the deposited data

How the results depend on the processing

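The number of probe sets that met the choice was 229 with a ratio of 3, 70 with a ratio of 5 and 70 with the detection level at the highest control signal. Leaving out 1 array at a time gave 117 to 249. Scaling changed its membership: median scaling kept 114 of the 117, quantile normalization 113 and scaling to the hybridization controls 82. The number of the 117 whose rise differed between R and S was 0 as deposited and 0 to 1 with 1 array left out (limma). The number that differed under drought, 3, was 0 with eBayes without a trend, 0 with only the groups compared in the fit, and 0 to 4 with 1 array left out. The number that differed when well-watered, 11, was 5 with median scaling, 1 with hybridization control scaling, 2 with eBayes without a trend and 1 to 12 with 1 array left out. Some of these fits had fewer arrays, and why the counts changed was not tested. With the replicate number as a block the counts were 0, 2 and 10. Deviations from the group mean correlated with r of −0.13 to 0.18 over 18 same-numbered pairs and −0.22 to 0.22 over 36 other pairs. The numbers were therefore used only as names, although such correlations cannot exclude a shared batch. No direction of a called probe set that is named for a genotype difference turned under any alternative. With 3 arrays per group and a median SE of 0.41, modest differences between the rises of R and S cannot be resolved, and larger ones can be missed. In the simulated data, the test of the rises recovered 1.49% of 2-fold, 49.3% of 4-fold and 86.4% of 8-fold differences.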
